A study of Saccharomyces cerevisiae with 4 samples.

Results

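The ribosome biogenesis factor genes of Saccharomyces cerevisiae described here are the protein-coding genes whose symbol is UTP, NOP, NOC, RRP or NSA followed by a digit. In the gene table of the R64 assembly 58 genes met that rule, and 55 of them were used among 5684 coding genes. The other 3, UTP11, RRP14 and UTP30, lie on chromosome XI, which was left out because its positions were best matched to that table at a lag of -370 bp. The rule itself used symbols only, but it was set with earlier results of these data known. The lag that removed chromosome XI was measured on the deposited positions.

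Chromatin bound by 3 mRNA decay factors was mapped by ChIP-exo, which trims the DNA held by a precipitated protein with exonuclease so that the ends of sequenced tags lie close to where the protein was crosslinked. A TAP tag, which IgG beads bind, was on Xrn1, the cytoplasmic exonuclease that degrades decapped mRNA, in the Xrn1-TAP library. It was on Dcp2, the catalytic subunit of the mRNA decapping enzyme, in the Dcp2-TAP library, and on Lsm1, a subunit of the cytoplasmic Lsm ring that promotes decapping, in the Lsm1-TAP library. The no-TAP library came from cells with no tagged protein taken through the same IgG purification, and all 4 strains had the background yMC458 and grew in YPD. Each group was 1 library, so a difference between groups had no replicate check, no p-value between conditions is given, and every interval covers counting error only. The design text of the series speaks of replicates, although each group had 1 library. Whether a library combines several cultures is not given in the sources used here.

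Ribosome biogenesis starts in the nucleolus, where RNA polymerase I transcribes the long precursor of the ribosomal RNAs. The small-subunit processome assembles on the nascent precursor from the UtpA, UtpB and UtpC subcomplexes, small nucleolar ribonucleoproteins (snoRNPs) and single factors, many of them named UTP. Other NOP, NOC, RRP and NSA proteins fold, modify and export the large subunit, and the exosome trims precursor ends. In budding yeast the genes for these factors form a large co-regulated group, the ribosome biogenesis regulon, which responds to nutrients together with the ribosomal protein genes.

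The unit used first is the distinct position, a base on 1 strand that holds at least 1 tag, counted once however many tags lie there. The second is the tag count, which can include PCR copies. The Xrn1-TAP, Dcp2-TAP and Lsm1-TAP libraries held 158105, 357674 and 211236 tags, against 33412 tags in the no-TAP library. Those tags lay at 18481, 44955 and 25342 distinct positions in the tagged libraries, against 4743 in the no-TAP library. In the windows of the 55 genes a position held on average 10.9, 9.03 and 6.68 tags in the tagged libraries, against 7.0 in the no-TAP library.

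Values were taken in the 300 bp upstream of each start codon. No window of the 55 genes held a snoRNA gene or any other RNA gene, whereas 127 windows of all coding genes did (2.23%), 17 of them (0.299%) with a snoRNA gene. The nearest RNA gene outside a window was SNR45, a snoRNA gene on the opposite strand that begins 309 bp upstream of the NOC4 start codon. A tRNA gene lay 480 bp upstream of UTP20 and another 538 bp upstream of UTP22. The window overlapped that of another coding gene for 23 of the 55 genes (41.8%), against 31.9% of all coding genes, so that in these windows a position cannot be assigned to 1 of the neighbours.

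As a group, the 55 genes held a number of upstream positions that did not differ from the average coding gene beyond counting error, and a single gene, NOC4, stood apart from the others. Their windows contained 40 positions in the Xrn1-TAP library, 146 in the Dcp2-TAP library, 53 in the Lsm1-TAP library and 12 in the no-TAP library. Per window this was 0.841 times the mean coding gene for Xrn1-TAP (95% exact Poisson interval 0.601 to 1.14), 1.18 times for Dcp2-TAP (0.994 to 1.38), 0.898 times for Lsm1-TAP (0.673 to 1.17) and 0.955 times for no-TAP (0.493 to 1.67). All 4 intervals included the mean coding gene, but the Dcp2-TAP interval lay above it when only positions with at least 2 tags were counted (1.34, 1.12 to 1.58), and the Xrn1-TAP interval lay below it with start codons moved 80 bp downstream (0.660, 0.445 to 0.942). By tags, which are not independent of each other, the 55 genes held 1.04, 1.33 (1.26 to 1.41) and 0.709 (0.637 to 0.787) times the mean coding gene in the tagged libraries, against 0.890 times in no-TAP. The median gene of the 55 had 0, 2 and 1 positions in the tagged libraries, against 0 in no-TAP, and the median of all coding genes was 0, 1 and 1, against 0. Without NOC4, a comparison added after its values were seen, the other 54 genes held 0.685 times the mean coding gene in the Xrn1-TAP library (0.468 to 0.967) and 1.03 times in the Dcp2-TAP library (0.855 to 1.22). The fullest gene was left out of the group only, and the mean coding gene kept its fullest windows. The fold could therefore only fall, so the Xrn1-TAP interval below 1 does not show a depletion.

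**Figure D1:**
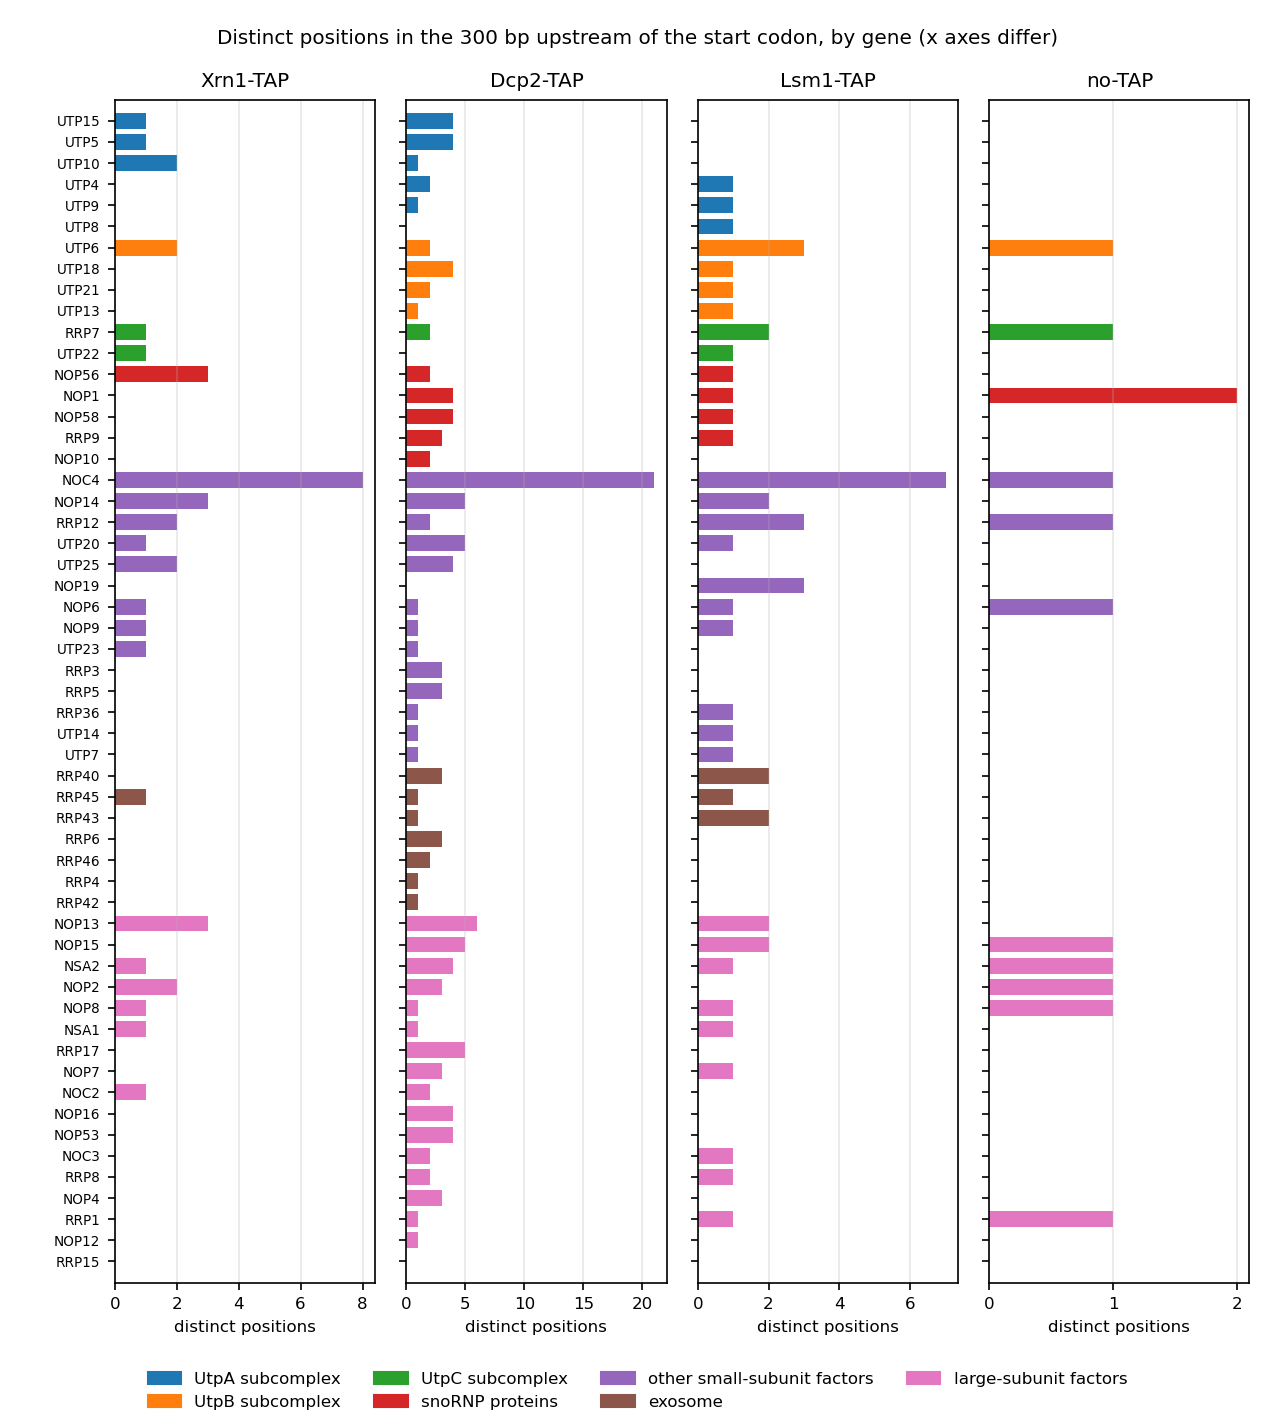
Distinct positions in the 300 bp upstream window (x axis, which differs between panels) of each of the 55 genes (y axis), coloured by role, in the 4 libraries, 1 per group. NOC4 holds 8, 21 and 7 in the tagged libraries, against 1 in the no-TAP library, and no other gene exceeds 6.

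The Dcp2-TAP positions were spread over nearly all of the genes. At least 1 position lay in the window of 22 genes in the Xrn1-TAP library (40%, 95% Clopper-Pearson interval 27.0 to 54.1%), 51 genes in the Dcp2-TAP library (92.7%, 82.4 to 98%), 35 genes in the Lsm1-TAP library (63.6%, 49.6 to 76.2%) and 11 genes in the no-TAP library (20%, 10.4 to 33.0%). Among all coding genes the shares were 47.4%, 75.6% and 54.9% in the tagged libraries, against 18.2% in the no-TAP library. The Dcp2-TAP library was the deepest, and if its positions were thinned at random to the number in the Xrn1-TAP library, the mean share with a position would be 62.1% of the 55 genes, against 49.2% of all coding genes. The 4 windows with no Dcp2-TAP position were those of UTP8, UTP22, NOP19 and RRP15.

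Few windows held 8 or more positions. In the Dcp2-TAP library 17 of the 55 genes had 1 position (30.9%, against 27.7% of all coding genes) and 11 had 2 (20%, against 19.5%). Another 8 had 3 (14.5%, against 10.9%), 9 had 4 (16.4%, against 6.51%) and 4 had 5 (7.27%, against 3.08%). These differences were not tested. NOP13 had 6, and NOC4 was the only gene with 8 or more (1.82% of the 55 genes, against 4.79% of all coding genes). A position in each of the 3 tagged libraries was seen for 14 of the 55 genes (25.5%), against 26.6% of all coding genes. RRP15, a factor of the large subunit, was the only one of the 55 with no position in any of the 4 libraries.

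**Figure D2:**
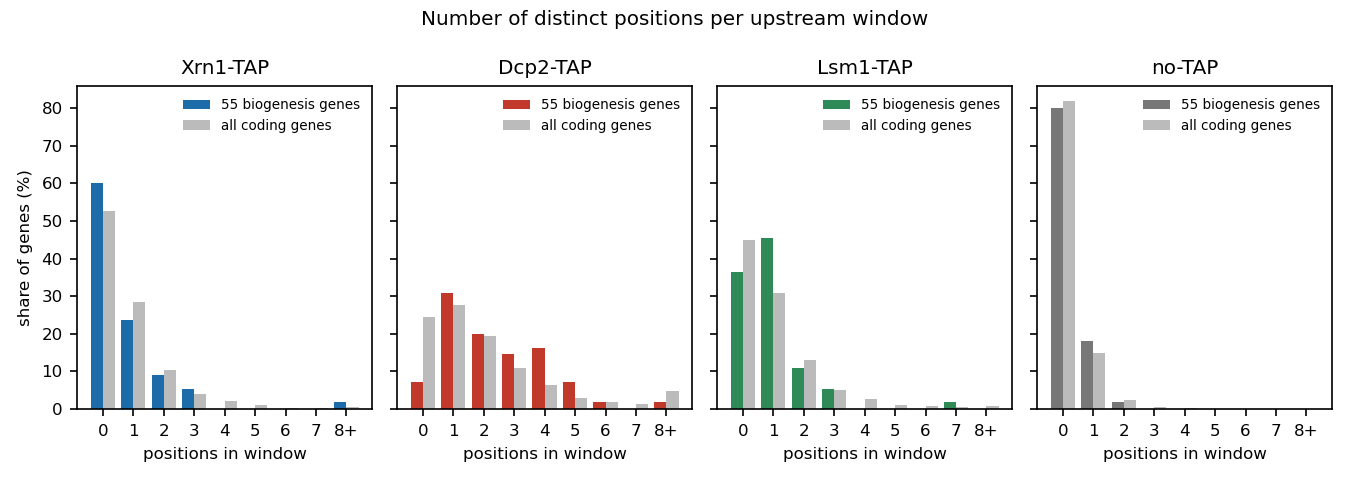
Share of genes (y axis, %) by the number of distinct positions in the upstream window (x axis, 8 or more pooled) for the 55 genes (coloured) and all 5684 coding genes (grey) in each library. In the Dcp2-TAP library 7.27% of the 55 genes had no position, against 24.4% of all coding genes.

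A window was called when it held more than it would with the library's signal spread evenly across the nuclear genome, ribosomal DNA left out. The test was an exact 1-sided Poisson test, and its p, adjusted by Benjamini-Hochberg across 5684 genes, had to be at most 0.05. This test sets a library against itself and compares no conditions. By positions, 1 of the 55 windows was called in the Xrn1-TAP library (1.82%), against 4.57% of all coding genes. In the Dcp2-TAP library 6 were called (10.9%), against 11.0% of all coding genes. The Lsm1-TAP library called 1 (1.82%), against 6.02%, and the no-TAP library called 0, against 0.774%. The shares of the 55 genes were thus close to or under those of all genes.

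NOC4 was called by positions in all 3 tagged libraries, with an exact Poisson adjusted p of 2.73e-06 in Xrn1-TAP, 3.09e-18 in Dcp2-TAP and 1.75e-04 in Lsm1-TAP, against 0.562 in no-TAP. The no-TAP library was shallower, so these values are not at like depth. Thinned to its number of positions, the tagged libraries called a mean of 0.4, 0.5 and 0.15 of the 55 windows, where the shares of all coding genes were 0.755%, 0.941% and 0.570%. At full depth the other Dcp2-TAP calls were NOP13 with 6 positions (exact Poisson test, adjusted p = 0.00880), and UTP20, NOP14, RRP17 and NOP15 with 5 each (exact Poisson test, adjusted p = 0.0379 for each). By tags, 11 of the 55 windows were called in Xrn1-TAP (20%), against 28.5% of all coding genes, and 30 in Dcp2-TAP (54.5%), against 38.6%. In Lsm1-TAP 10 were called by tags (18.2%), against 28.5%, and in no-TAP 6 (10.9%), against 11.2%. Of these 8 shares, that of the Dcp2-TAP tag calls was the only one above the share of all genes.

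NOC4 encodes a nucleolar protein that works with Nop14 in maturation of the small subunit. Its window held 8, 21 and 7 positions with 107, 179 and 53 tags in the Xrn1-TAP, Dcp2-TAP and Lsm1-TAP libraries, against 1 position with 1 tag in the no-TAP library. Ranked by its mean share of the positions over the 3 tagged libraries, it was 24 of all 5684 coding genes, and the next of the 55, NOP13, was 358. As CPM, a window's tags relative to all tags of its library, the NOC4 level was 677, 500.5 and 251 CPM in the tagged libraries, against 29.9 CPM in no-TAP. The tag ratio to no-TAP was 22.6 for Xrn1-TAP (95% exact interval 3.97 to 901), 16.7 for Dcp2-TAP (2.96 to 664) and 8.38 for Lsm1-TAP (1.44 to 337). The ratios by positions were 2.05 (0.275 to 91.1), 2.22 (0.356 to 91.6) and 1.31 (0.168 to 59.0), and each of these intervals included 1, since the no-TAP library had a single position there.

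The NOC4 positions lay at the far edge of the window, beside SNR45, and not next to the NOC4 start codon. In the files' own indices on chromosome XVI they ran from 821662 to 821721 in Xrn1-TAP, from 821512 to 821721 in Dcp2-TAP and from 821632 to 821721 in Lsm1-TAP, with the no-TAP position at 821668. Counted from the NOC4 start codon, their median lay at -267.5 bp for Xrn1-TAP, -271 bp for Dcp2-TAP and -272 bp for Lsm1-TAP, against -245 bp for the no-TAP position. Of the window's positions, 8 of 8 in Xrn1-TAP, 20 of 21 in Dcp2-TAP, 7 of 7 in Lsm1-TAP and 1 of 1 in no-TAP lay within the 100 bp that precede SNR45, at a median of 41.5, 38 and 37 bp from that gene in the tagged libraries and 64 bp in no-TAP. The 200 bp nearest to the NOC4 start codon held 0, 1 and 0 positions in the tagged libraries, against 0 in no-TAP. SNR45 itself, 172 bp long, held 1, 8 and 2 positions in the tagged libraries, against 0 in no-TAP.

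The positions in the NOC4 window were on both strands. On the strand of NOC4 and on the strand of SNR45 there were 3 and 5 in Xrn1-TAP, 10 and 11 in Dcp2-TAP, 4 and 3 in Lsm1-TAP, and 0 and 1 in no-TAP. No single position dominated, since the fullest one held 23, 23 and 10 tags in the tagged libraries, against 1 tag in no-TAP. The same base and strand recurred between libraries for 1 of the 8 Xrn1-TAP positions in Dcp2-TAP, 2 of the 8 in Lsm1-TAP and 3 of the 21 Dcp2-TAP positions in Lsm1-TAP. The coding gene on the far side of SNR45 is ASN1, an asparagine synthetase gene 1196 bp from NOC4, and its own window held 5, 12 and 3 positions in the tagged libraries, against 2 in no-TAP. The gene table and the files matched best at a lag of 0 bp on the right part of chromosome XVI, where NOC4 lies, and at lags of up to 70 bp on parts of other chromosomes. The part of SNR45 in the NOC4 values was not tested.

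**Figure D3:**
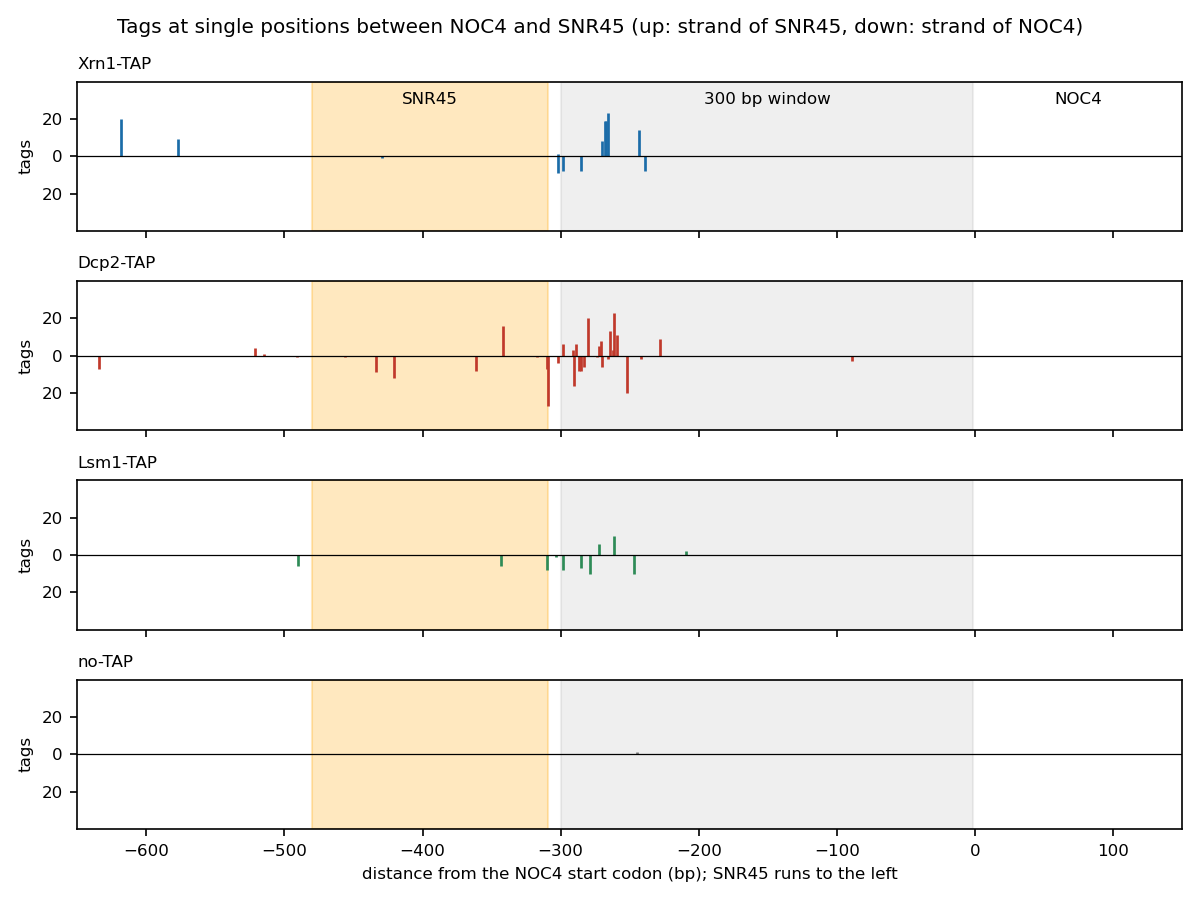
Tags (y axis) at single positions by distance from the NOC4 start codon in bp (x axis) in the 4 libraries, drawn up on the strand of SNR45 and down on the strand of NOC4. The grey area is the 300 bp window and the orange area is SNR45, and in the tagged libraries the bars gather at the left edge of the window, with 8, 21 and 7 positions, against 1 in the no-TAP library.

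Sorted by role, the genes of the processome subcomplexes did not stand apart by positions from the mean coding gene, which every position interval of the UtpA, UtpB and UtpC groups included. By tags, which are not independent of each other, some intervals excluded it on either side. Examples are UtpA in Lsm1-TAP at 0.441 times (0.282 to 0.655) and UtpC in Xrn1-TAP at 2.10 times (1.44 to 2.97). The 6 UtpA genes, whose products bind the precursor first, held 4, 12 and 3 positions in the Xrn1-TAP, Dcp2-TAP and Lsm1-TAP libraries, against 0 in the no-TAP library. UTP5 and UTP15 had 1 Xrn1-TAP, 4 Dcp2-TAP and 0 Lsm1-TAP positions each, against 0 in no-TAP, and both share their window with a neighbour. UTP10 had 2 Xrn1-TAP positions with 27 tags and 1 Dcp2-TAP position with 15 tags, and UTP8 had a single Lsm1-TAP position with 7 tags. UTP4 and UTP9 reached at most 2 positions in any library.

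The 4 UtpB genes held 2, 9 and 6 positions in the tagged libraries, against 1 in no-TAP. UTP6 was the fullest of them over the tagged libraries, with 2, 2 and 3 positions in the tagged libraries, against 1 in no-TAP, and 38, 11 and 14 tags, against 15 tags in no-TAP. UTP6 therefore had no more tags in Dcp2-TAP and Lsm1-TAP than in the shallower no-TAP library. UTP13 had 1 position each in Dcp2-TAP and Lsm1-TAP. UTP18 was occupied in Dcp2-TAP by 4 positions with 50 tags and in Lsm1-TAP by 1 position with 13 tags. Of the UtpC genes, RRP7 had 1, 2 and 2 positions in the tagged libraries, against 1 in no-TAP. UTP22 had 1 Xrn1-TAP position with 31 tags and 1 Lsm1-TAP position with 6 tags, and 0 in Dcp2-TAP and no-TAP.

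The 5 genes of snoRNP proteins held 3, 15 and 4 positions in the tagged libraries, against 2 in no-TAP, which for Dcp2-TAP was 1.33 times the mean coding gene (0.745 to 2.19). All 3 Xrn1-TAP positions were at NOP56, a core protein of the box C/D snoRNPs that guide ribose methylation, with 28 tags. NOP1, the methyltransferase of these particles, had 0, 4 and 1 positions in the tagged libraries, against 2 in no-TAP, the highest no-TAP number of the 55 genes. NOP58, another box C/D core protein, had 4 Dcp2-TAP positions and 1 in Lsm1-TAP, and RRP9 had 3 and 1. NOP10, a core protein of the box H/ACA particles that guide pseudouridylation, had 2 positions in Dcp2-TAP and 0 in Xrn1-TAP, Lsm1-TAP and no-TAP.

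The 14 other small-subunit factors were the role with the most positions per window in Xrn1-TAP and Dcp2-TAP, and NOC4 is one of them. They held 19, 49 and 21 positions in the tagged libraries, against 3 in no-TAP. That was 1.57 times the mean coding gene in Xrn1-TAP (0.944 to 2.45), 1.55 times in Dcp2-TAP (1.15 to 2.05), 1.40 times in Lsm1-TAP (0.865 to 2.14) and 0.938 times in no-TAP. NOC4 supplied 8, 21 and 7 of these positions in the tagged libraries, against 1 in no-TAP, and without it the other 13 genes were at 0.978, 0.955 (0.635 to 1.38) and 1.00 times the mean coding gene, against 0.673 times in no-TAP. NOP14, the partner of Noc4, had 3, 5 and 2 positions in the tagged libraries, against 0 in no-TAP, in a window that overlaps that of RPN5.

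UTP20, a large protein of the processome, had 1, 5 and 1 positions in the tagged libraries, against 0 in no-TAP. RRP12, which takes part in the export of both subunits, had 2, 2 and 3 positions in the tagged libraries, against 1 in no-TAP, and UTP25 had 2, 4 and 0, against 0. RRP36 had 1 position each in Dcp2-TAP and Lsm1-TAP and none in the other libraries. NOP19, chosen after its values were seen, was occupied in a single library, by 3 Lsm1-TAP positions with 40 tags. The other genes of this role, NOP6, NOP9, UTP23, RRP3, RRP5, UTP14 and UTP7, had at most 1 Xrn1-TAP, 3 Dcp2-TAP and 1 Lsm1-TAP positions, against at most 1 in no-TAP.

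The 7 exosome genes with an RRP symbol held a single position in the Xrn1-TAP library, where 52.6% of all coding genes held none. They encode subunits of the complex and its nuclear exonuclease Rrp6, and held 1 Xrn1-TAP position, 12 Dcp2-TAP and 5 Lsm1-TAP positions, against 0 in no-TAP. The Xrn1-TAP value was 0.165 times the mean coding gene (0.00418 to 0.920), the Dcp2-TAP value 0.760 times and the Lsm1-TAP value 0.666 times. Another 7 exosome genes without such a symbol, DIS3 with 3 and MTR3 with 2 Xrn1-TAP positions among them, held 7 in Xrn1-TAP, or 1.16 times the mean coding gene (0.465 to 2.38), and the difference between these gene groups was not tested. RRP40, a subunit of the exosome cap, had 3 Dcp2-TAP and 2 Lsm1-TAP positions in a window shared with RIB4. RRP4, another cap subunit, had 1 Dcp2-TAP position with 7 tags, and RRP6 had 3 Dcp2-TAP positions with 33 tags. RRP42, RRP43, RRP45 and RRP46 had at most 1 Xrn1-TAP, 2 Dcp2-TAP and 2 Lsm1-TAP positions, against 0 in no-TAP.

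The 17 large-subunit factors held 9, 47 and 11 positions in the tagged libraries, against 5 in no-TAP. Relative to the mean coding gene this was 0.612 in Xrn1-TAP (0.280 to 1.16), 1.23 in Dcp2-TAP (0.901 to 1.63), 0.603 in Lsm1-TAP (0.301 to 1.08) and 1.29 in no-TAP. NOP13, a nucleolar RNA-binding protein, was the fullest, with 3, 6 and 2 positions and 58, 125 and 22 tags in the tagged libraries, against 0 in no-TAP, and its window is not shared. NOP15, an RNA-binding factor of early large-subunit particles, had 0, 5 and 2 positions in the tagged libraries, against 1 in no-TAP. NOP2, an rRNA methyltransferase, had 2, 3 and 0, against 1, and NSA2 had 1, 4 and 1, against 1. The other 11 genes of this role with a position, which include NOP53, NOP16 and NOP8, had at most 1 Xrn1-TAP, 4 Dcp2-TAP and 1 Lsm1-TAP positions, against at most 1 in no-TAP. RRP17, an exonuclease of this pathway chosen after its values were seen, had 5 Dcp2-TAP positions with 34 tags and none in the other libraries.

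**Figure D4:**
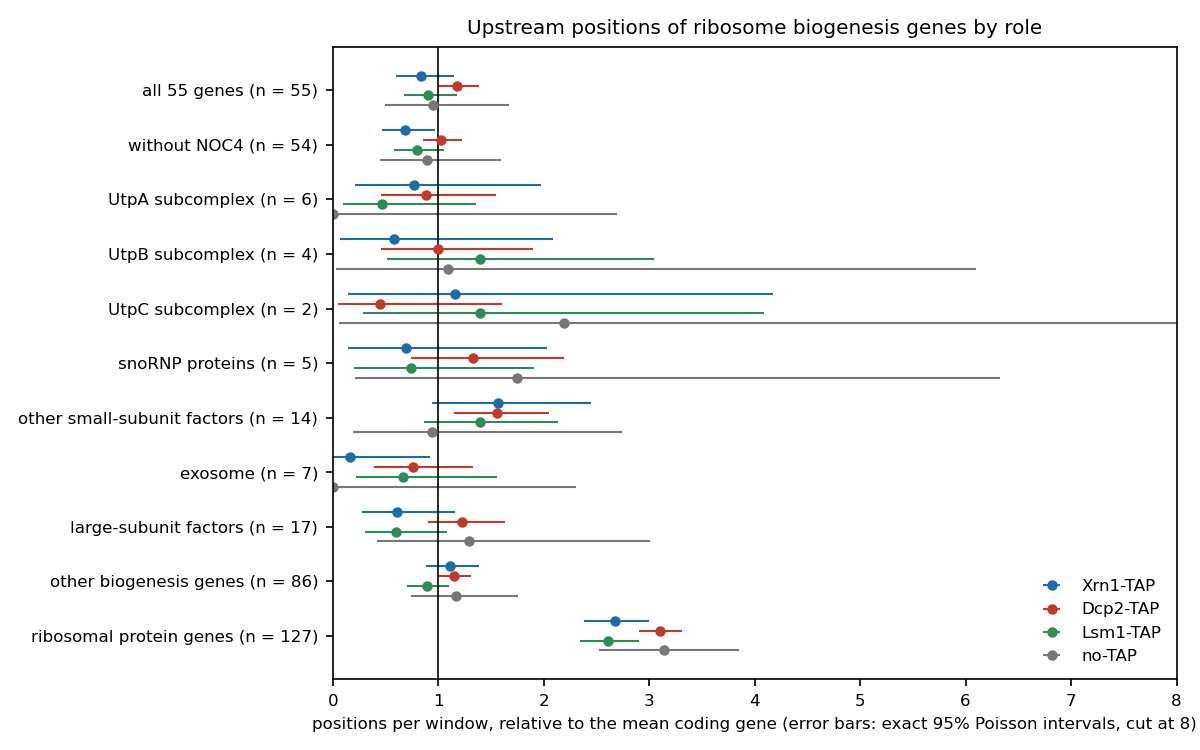
Positions per upstream window relative to the mean coding gene (x axis) by role (y axis, number of genes in brackets) in the 4 libraries, with exact 95% Poisson intervals as bars. The 55 genes lie near 1 in every library, at 0.841, 1.18 and 0.898 in the tagged libraries and 0.955 in no-TAP, and the ribosomal protein genes lie between 2.61 and 3.14.

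The tag counts were then set against the no-TAP library gene by gene, where a gene was counted if the exact 95% interval of its ratio excluded 1. Above no-TAP were 6 of the 55 genes in Xrn1-TAP (10.9%, background over all coding genes 9.04%), 7 in Dcp2-TAP (12.7%, background 7.07%) and 2 in Lsm1-TAP (3.64%, background 7.42%). Below no-TAP were 5 in Xrn1-TAP (9.09%, background 9.69%), 6 in Dcp2-TAP (10.9%, background 9.39%) and 5 in Lsm1-TAP (9.09%, background 10.4%). The split depended on the scaling. Median ratio scaling was set by the 467 genes with tags in all 4 libraries, only 7 of them among the 55. With it 8, 20 and 8 of the 55 genes lay above no-TAP, with backgrounds of 19.0%, 19.8% and 24.0%. The Dcp2-TAP share was above its background and the other shares were below theirs. Below no-TAP lay 4, 5 and 5, with backgrounds of 8.00%, 7.30% and 7.0%. By positions none of the 55 genes exceeded no-TAP in any tagged library, where the background was 0% for each, and none lay below, where it was 0.0704% in Xrn1-TAP, 0.334% in Dcp2-TAP and 0.581% in Lsm1-TAP. At the depth of the no-TAP library, a higher share of positions was not detectable at any single coding gene.

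NOC4 was the only one of the 55 genes above no-TAP by tags in all 3 tagged libraries. In Xrn1-TAP it was joined by NOP14, UTP22, UTP10, NOP56 and NOP13, in Dcp2-TAP by UTP20, NOP14, UTP18, UTP15, NOP13 and NOP53, and in Lsm1-TAP by NOP19. Against a floor of 3 tags in the no-TAP library, which had none there, NOP13 was 4.09-fold higher in Xrn1-TAP and 3.89-fold higher in Dcp2-TAP. The exact 95% intervals, which allow for counting error, began lower, at 3.22 and 3.12. With the same floor NOP14 was 3.03-fold higher in Xrn1-TAP, UTP20 2.24-fold higher in Dcp2-TAP and NOP19 2.11-fold higher in Lsm1-TAP. Their intervals began at 2.36 for NOP14, 1.78 for UTP20 and 1.64 for NOP19. Apart from NOC4, the genes above no-TAP had 1 to 6 positions in the library named.

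Scaled to library totals, NOP1, NOP2, NOP6 and NOP8 were below no-TAP by tags in all 3 tagged libraries. With median ratio scaling the intervals of NOP2 in Xrn1-TAP and of NOP1 in Dcp2-TAP included 1. Only NOP6 and NOP8 then stayed below in all 3. As for NOC4, the 3 ratios of a gene share its no-TAP count, so they are not independent of each other. The share of all coding genes on the same side in all 3 is not given here. NOP6, a small-subunit factor, had 10, 17 and 1 tags in the tagged libraries, against 17 in the shallower no-TAP library, so that its ratios were 0.124 (0.0509 to 0.287), 0.0934 (0.0448 to 0.195) and 0.00930 (2.23e-04 to 0.0594). NOP8, a large-subunit factor, had 4, 2 and 7 tags in the tagged libraries, against 16 in no-TAP, with ratios of 0.0528, 0.0117 and 0.0692. NOP2 had 26, 21 and 0 tags, against 13, and NOP1 had 0, 19 and 4, against 7. All 16 NOP8 tags, all 17 NOP6 tags and all 13 NOP2 tags of the no-TAP library lay at 1 position each, and the 4 windows all overlap that of a neighbouring gene.

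Between libraries, the share of positions that fell in the 55 windows was highest in Dcp2-TAP. Scaled to the library totals, the ratio of Dcp2-TAP to Xrn1-TAP was 1.5 (95% exact interval 1.05 to 2.19) and that of Dcp2-TAP to Lsm1-TAP 1.55 (1.13 to 2.17). Scaled to the positions in all upstream windows, these ratios were 1.40 (0.981 to 2.04) and 1.31 (0.951 to 1.83), and both intervals included 1. Without NOC4, left out after its values were seen, they were 1.5 (1.01 to 2.29) and 1.29 (0.916 to 1.86), and the interval of the Xrn1-TAP comparison then excluded 1. NOC4 held 8 of the 40 Xrn1-TAP positions and 21 of the 146 Dcp2-TAP positions, a larger part in Xrn1-TAP. Leaving it out therefore raised the ratio of Dcp2-TAP to Xrn1-TAP by construction, and this interval shows no difference between the libraries. Xrn1-TAP over Lsm1-TAP was 1.03 (0.669 to 1.59) by library totals. Against no-TAP the ratios were 0.855 for Xrn1-TAP (0.440 to 1.79), 1.28 for Dcp2-TAP (0.713 to 2.54) and 0.827 for Lsm1-TAP (0.436 to 1.70), none of which excluded 1. By tags these ratios were 1.10 for Xrn1-TAP (0.867 to 1.40), 1.47 for Dcp2-TAP (1.18 to 1.85) and 0.667 for Lsm1-TAP (0.524 to 0.856), and Xrn1-TAP over Lsm1-TAP was 1.65 (1.43 to 1.90). By library totals, the tag intervals of the Dcp2-TAP and Lsm1-TAP ratios to no-TAP thus excluded 1, in opposite directions. Those by positions did not, and tag intervals are too narrow if tags are PCR copies. Scaled to the tags in all upstream windows, the Lsm1-TAP ratio was 0.796 (0.626 to 1.02), and its interval included 1. The Dcp2-TAP ratio was then 1.499 (1.202 to 1.892) and still excluded it. With all 55 genes, whether the Lsm1-TAP tag interval excluded 1 thus depended on the scaling. Without NOC4, left out after its values were seen, it excluded 1 with both. The ratio was then 0.574 (0.448 to 0.741) by library totals and 0.685 (0.536 to 0.885) by all upstream windows. NOC4 itself had a tag ratio above 1, so leaving it out could only lower these values. Median ratio scaling was not applied to these group ratios. The libraries form 6 pairs, and the intervals were not adjusted for their number.

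The same gene group was set beside 86 other genes of ribosome biogenesis, chosen by name and function without the symbol rule. Those genes held 83, 222 and 82 positions in the tagged libraries, against 23 in no-TAP, or 1.12, 1.15 and 0.889 times the mean coding gene, against 1.17 times. By positions 3, 9 and 2 of them were called in the tagged libraries (3.49%, 10.5% and 2.33%), against 1 in no-TAP (1.16%), where the shares of all coding genes were 4.57%, 11.0% and 6.02%, against 0.774%. By tags 27, 47 and 23 were called (31.4%, 54.7% and 26.7%), against 12 in no-TAP (14.0%), where the shares of all coding genes were 28.5%, 38.6% and 28.5%, against 11.2%. Per window the 55 genes held 0.754 times as many positions as these 86 in Xrn1-TAP (0.503 to 1.11), 1.03 times in Dcp2-TAP (0.829 to 1.27), 1.01 times in Lsm1-TAP (0.702 to 1.45) and 0.816 times in no-TAP (0.370 to 1.71), so no interval excluded 1.

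Within that list, the 7 RNA polymerase I genes were at 2.15 times the mean coding gene in Xrn1-TAP (1.14 to 3.67), 2.09 times in Dcp2-TAP (1.44 to 2.94) and 1.33 times in Lsm1-TAP (0.638 to 2.45), against 3.13 times in no-TAP (1.01 to 7.29). RPA34, which encodes a subunit of the polymerase, held 7, 17 and 4 positions in the tagged libraries, against 3 in no-TAP. Without RPA34, left out after its values were seen, the other 6 were at 1.16 (0.424 to 2.52), 1.18 (0.676 to 1.92) and 0.932 times the mean coding gene, against 1.46 times in no-TAP, and no interval excluded it. PWP2, a UtpB gene outside the symbol rule, had 4, 3 and 2, against 1, and YTM1, a large-subunit factor gene, had 3, 8 and 2, against 0. CBF5, the pseudouridine synthase of the box H/ACA particles, had 3, 5 and 2, against 0. The 8 regulator genes on the list were at 0.433 times the mean coding gene in Xrn1-TAP, 1.05 times in Dcp2-TAP and 0.233 times in Lsm1-TAP, against 0.547 times in no-TAP.

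Ribosomal protein genes, which belong to the same growth-regulated programme, held far more positions. Per window the 55 genes had 0.727 positions and the 127 ribosomal protein genes 2.31 in Xrn1-TAP, 2.65 and 6.99 in Dcp2-TAP, 0.964 and 2.80 in Lsm1-TAP, and 0.218 and 0.717 in no-TAP. The ratio of the 55 genes to the ribosomal protein genes was 0.314 in Xrn1-TAP (0.220 to 0.438), 0.380 in Dcp2-TAP (0.316 to 0.453), 0.344 in Lsm1-TAP (0.253 to 0.460) and 0.304 in no-TAP (0.152 to 0.558). All 4 intervals lay below 1, the untagged library included. At least 1 Dcp2-TAP position lay in 97.6% of the ribosomal protein windows, against 48.0% in no-TAP.

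The positions were also followed along the genes. Upstream of the 55 start codons there were 2.42 positions per kb in Xrn1-TAP, 8.85 in Dcp2-TAP and 3.21 in Lsm1-TAP, against 0.727 in no-TAP. More than 100 bp inside the coding sequences there were 0.698, 1.44 and 0.981 per kb in the tagged libraries, against 0.142 in no-TAP. The upstream to inside ratio was 3.47 in Xrn1-TAP (2.28 to 5.24), 6.15 in Dcp2-TAP (4.82 to 7.84), 3.27 in Lsm1-TAP (2.29 to 4.65) and 5.13 in no-TAP (2.14 to 12.2). For all coding genes it was 2.78, 3.09 and 2.35 in the tagged libraries, against 2.89 in no-TAP. Without NOC4 the ratio was 2.78 in Xrn1-TAP (1.76 to 4.32), 5.27 in Dcp2-TAP (4.09 to 6.78) and 2.91 in Lsm1-TAP (1.99 to 4.20), against 4.71 in no-TAP (1.91 to 11.4). The Dcp2-TAP interval then lay above the 3.09 of all coding genes, the other 3 included the value of all coding genes, and the no-TAP interval also covered the Dcp2-TAP value.

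**Figure D5:**
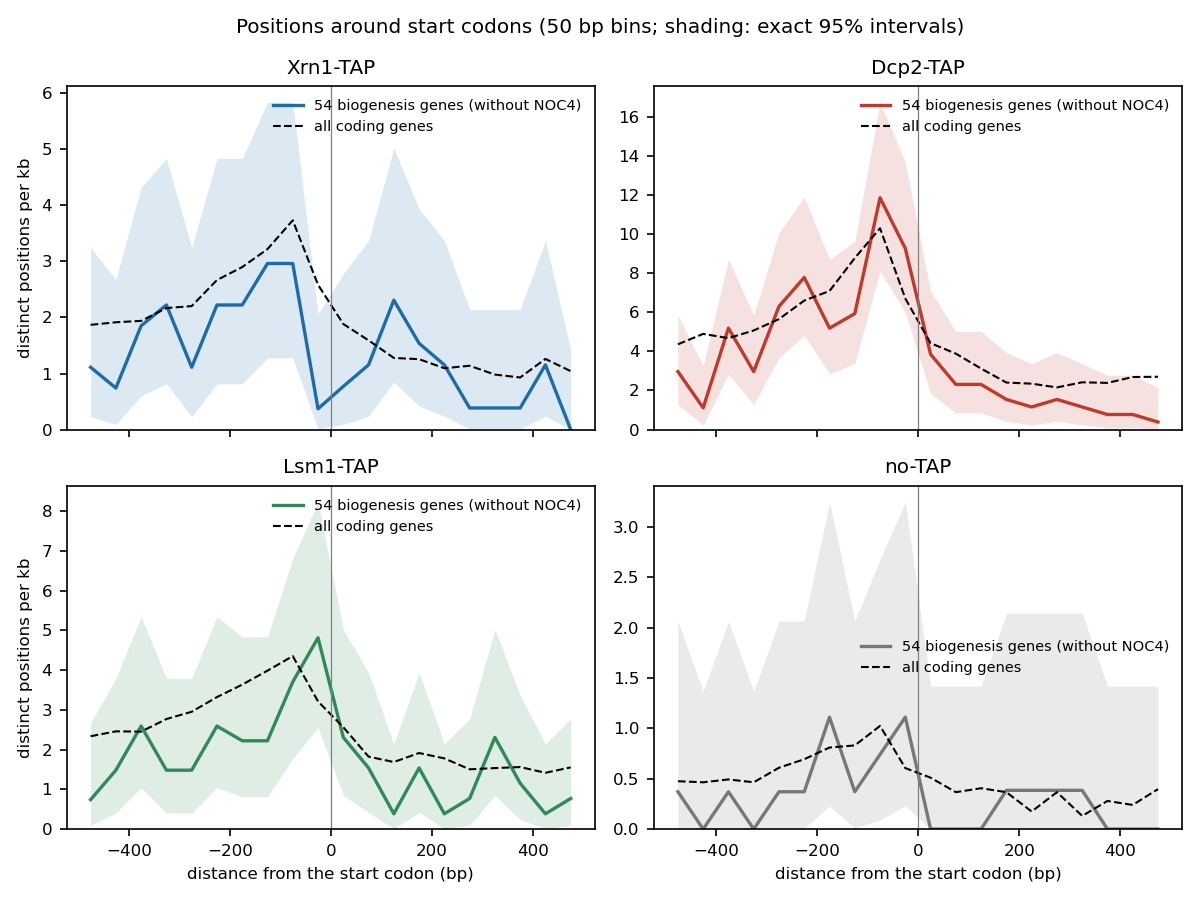
Distinct positions per kb (y axis, which differs between panels) in 50 bp bins by distance from the start codon in bp (x axis) for 54 of the genes, NOC4 left out (line, with exact 95% intervals shaded), and for all coding genes (dashed) in each library, bins inside genes counting those with at least 600 bp of coding sequence. In the Dcp2-TAP library the 54 genes reach 11.9 positions per kb between 100 and 51 bp upstream and 0.385 per kb in the last bin inside the gene.

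The lower level inside the coding sequences was examined after these values were seen, in genes at least 1000 bp long and at least 300 bp from both ends, which kept 38 of the 55 genes among 3256 genes. These 38 genes held 0.469, 1.05 and 0.776 positions per kb in the tagged libraries, against 0.0808 in no-TAP, and all such genes held 0.643, 1.44 and 0.972, against 0.154. Set against the other long genes the ratio was 0.726 in Xrn1-TAP (0.485 to 1.05), 0.727 in Dcp2-TAP (0.560 to 0.927), 0.796 in Lsm1-TAP (0.586 to 1.06) and 0.523 in no-TAP (0.169 to 1.23). The Dcp2-TAP interval alone excluded 1. The median coding length was 1515 bp for the 55 genes and 1197 bp for all coding genes.

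By arrangement, 27 of the 55 genes had a divergent upstream neighbour and 28 stood in tandem. The divergent genes held 1.12, 1.38 and 1.09 times the positions of the mean divergent coding gene in the tagged libraries, against 1.5 times in no-TAP, with an interval of 1.10 to 1.71 in Dcp2-TAP. NOC4 is one of the divergent genes, and without it the Dcp2-TAP value was 1.07 (0.819 to 1.37). The tandem genes held 0.572 (0.313 to 0.960), 0.987 and 0.720 times the mean tandem gene in the tagged libraries, against 0.456 times in no-TAP. Of the positions in the 55 windows, 22.5% in Xrn1-TAP (10.8 to 38.5%), 39.7% in Dcp2-TAP (31.7 to 48.1%) and 43.4% in Lsm1-TAP (29.8 to 57.7%) lay in the last 100 bp before the start codon, against 41.7% in no-TAP (15.2 to 72.3%). The shares over all coding genes were 36.5%, 37.7% and 35.3%, against 35.6%, and all lay within those intervals.

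Exact positions seldom recurred between libraries. Of the 40 Xrn1-TAP positions in the 55 windows, 2 (5%) were also Dcp2-TAP positions and 2 (5%) were Lsm1-TAP positions. Dcp2-TAP and Lsm1-TAP shared 3, which is 2.05% of the 146 Dcp2-TAP positions and 5.66% of the 53 Lsm1-TAP positions. All 3 of these, both of the Xrn1-TAP positions shared with Lsm1-TAP and 1 of the 2 shared with Dcp2-TAP lay in the NOC4 window, so that the other 54 genes shared 0, 0 and 1 position. Over all positions of the genome, 3.50% of those in Xrn1-TAP were also in Dcp2-TAP and 2.33% in Lsm1-TAP. For Dcp2-TAP and Lsm1-TAP the shared ones were 1.84% and 3.26% of their positions.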

How the data were processed

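The deposited values were counts of tags per index and strand, with no normalization, per the file headers. Per the labels' protocols, chromatin from cells fixed with 1% formaldehyde was bound to IgG beads and digested with exonucleases. The aligner, the build, any filter and the treatment of duplicates are not given in these sources, and neither is whether a file combines replicates. The gene table of the R64 assembly was used after a check of register, which gave lags of at most 30 bp on the 15 chromosomes used, so a start codon can be misplaced by as much as 70 bp, and R64 coordinates are not given. Gene strand was read from the locus tag. No genome or promoter sequence was used, so the planned count of promoter motifs was not made.

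Distinct positions and tags were counted in the 300 bp upstream of 5684 start codons in Python (version 3.11.15) with pandas 2.3.3, numpy 2.4.6 and, for the tests, scipy 1.17.1, and matplotlib 3.10.9 drew the plots. Calls used the 1-sided Poisson test with Benjamini-Hochberg adjustment at 0.05 over all coding genes. Ratios of libraries were scaled to library totals, with exact conditional binomial intervals, and folds over the mean coding gene had exact Poisson intervals, all at 95%. A floor of 3 tags is 19.0, 8.39 and 14.2 CPM in the Xrn1-TAP, Dcp2-TAP and Lsm1-TAP libraries and 89.8 CPM in the no-TAP library. PCR copies are not independent molecules, so intervals and floors cover counting error only.

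The scripts were tested on simulated data. The members, the gene lists and the tests were chosen with earlier results of these data known. Genes were named if they had one of the 12 highest mean shares in the tagged libraries, lay above or below no-TAP by tags in all 3 tagged libraries, had one of the 4 highest no-TAP counts, were highest or lowest in their role, or had no position in any library. Of 95 listed other pathway genes, 9 were not used because they lie on chromosome XI or could not be matched. Alternatives were other window lengths, positions in place of tags, median ratio scaling, shifted start codons, a minimum tag count, thinned libraries and the genes without NOC4.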

Additional observations from a re-analysis of the deposited data

How the results depend on the processing

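Of 192 alternative values, 156 stayed within their error or within 1.5 times the count reported and 36 moved. Of 59 folds and ratios recomputed, 5 fell on the other side of 1, none of them with an interval that excluded 1: with start codons moved 80 bp upstream the Xrn1-TAP fold (1.03) and the ratios to no-TAP of Xrn1-TAP (1.65) and Lsm1-TAP (1.18), moved 80 bp downstream the Dcp2-TAP fold (0.957), and at 500 bp the Xrn1-TAP ratio (1.08). Counts of the 55 genes follow, each with the share of all coding genes at that setting in brackets. In a 150 bp window, called windows by positions were 0 in Xrn1-TAP (3.57%), 2 in Dcp2-TAP (7.44%) and 0 in Lsm1-TAP (2.16%), and 7 were called by tags in Xrn1-TAP (19.5%). Above no-TAP by tags lay 3 in Xrn1-TAP (4.93%), 2 in Dcp2-TAP (3.22%) and 1 in Lsm1-TAP (3.08%), and below lay 3 in Xrn1-TAP (6.00%). In a 500 bp window, 3 were called by positions in Dcp2-TAP (10.8%), 5 lay above no-TAP in Lsm1-TAP (12.4%) and 3 below in Xrn1-TAP (11.8%). Start codons moved 80 bp downstream gave 0 position calls in Xrn1-TAP (4.08%), 0 in Lsm1-TAP (3.17%) and 3 genes below no-TAP in Xrn1-TAP (9.24%). Moved 80 bp upstream, they gave 2 position calls in Xrn1-TAP (3.68%), 6 tag calls in Lsm1-TAP (27.4%) and 3 in no-TAP (10.3%), 3 genes above no-TAP in Dcp2-TAP (6.58%), and below no-TAP 3 in Xrn1-TAP (8.94%), 3 in Dcp2-TAP (8.66%) and 3 in Lsm1-TAP (9.5%). By positions in place of tags, 0 genes lay above and 0 below no-TAP in each tagged library (at most 0.581%). Median ratio scaling shifts the ratios to no-TAP on the log2 scale by 0.82 for Xrn1-TAP, 0.89 for Dcp2-TAP and 1.39 for Lsm1-TAP. It put 20 of the 55 genes above no-TAP in Dcp2-TAP, a share above that of all coding genes (19.8%). In Lsm1-TAP it put 8 of the 55 above, a share below that of all coding genes (24.0%). Thinned to the number of no-TAP positions, a mean over 20 draws of 0.4 windows in Xrn1-TAP (0.755%), 0.5 in Dcp2-TAP (0.941%) and 0.15 in Lsm1-TAP (0.570%) were called by positions. Without NOC4, chosen after its values were seen, 0 windows were called by positions in Xrn1-TAP (4.57%) and 0 in Lsm1-TAP (6.02%), and 1 gene lay above no-TAP in Lsm1-TAP (7.42%). Leaving out genes with an RNA gene in the window removed none. The values of that setting therefore equal those reported by construction, although they are counted among the 156 that stayed. The cause of a change was not tested. No paired analysis was possible because each group had 1 library. The 33412 tags of the no-TAP library limit every ratio to it.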
